A study of Mus musculus with 9 samples.

Results

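Autophagy is the process by which a cell encloses parts of its own cytoplasm in a double membrane, the autophagosome, and delivers them to the lysosome for breakdown. A kinase complex starts it, a lipid kinase complex marks the membrane, a pair of ubiquitin-like conjugation systems attach proteins of the ATG8 family to the membrane, and receptors tie the cargo to those proteins. Mitophagy is the form that removes mitochondria. In skeletal muscle autophagy is known to take part in the turnover of proteins and organelles, and its genes are often measured when a muscle is disused.

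The genes described here are 10 named genes of this pathway: Ulk1, Becn1, Atg12, Map1lc3a, Map1lc3b, Gabarapl1, Sqstm1, Bnip3, Pink1 and Tfeb. They were taken by symbol, each matched to 1 Ensembl gene of the count table, and all 10 were among the 14851 genes tested of 55487 counted. Polyadenylated RNA was sequenced from gastrocnemius, a calf muscle, in 4 Control, 2 Unloading and 3 Reloading mice. Control mice lived in conventional cages. Unloading mice were taken after 10 days of hindlimb unloading, in which the tail is tied to the cage top so that the hind legs carry no weight. Reloading mice had the same unloading and were taken 1 day after their return to the cage floor. Per the labels every mouse was a wild-type male of the strain C57BL/6. The study names C57BL/6J for this experiment and its methods name females for the unloading procedure, and the age is not given in the sources used here. The comparisons ask how the muscle's transcripts change with disuse and at the turn from disuse to renewed load.

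Library totals ran from 9252443 to 19612101 read pairs in genes, as the header of the count table and the labels describe them, while the study's methods describe single reads, and the rarest of the 10 genes, Atg12, stood at 22.5 counts per 1000000 read pairs (CPM) or more in every library, where 1 read pair was worth at most 0.113 CPM. Levels are given as CPM scaled with TMM factors, which correct for the make-up of a library, and as mean ± SD over the libraries of a group. Differences are log2 fold changes ± standard error (SE) from edgeR's quasi-likelihood test over all 14851 genes, and a gene is called changed, risen or fallen where its Benjamini-Hochberg adjusted p is under 0.05. All 8 fast-fibre markers, such as Myh4 and Ckm, were detected in these libraries. Their summed CPM were 142498 to 155258 in Control, 156600 to 160231 in Unloading and 105067 to 117507 in Reloading, and 7 of the 8 fell in Reloading against Unloading. All 12 macrophage markers were detected, with summed CPM of 124 to 144 in Control, 151 to 195 in Unloading and 205 to 225 in Reloading, and 9 of the 11 tested rose and 1 fell in Reloading against Unloading. The 6 endothelial markers summed to 163 to 186 CPM in Control, 161 to 168 in Unloading and 275 to 322 in Reloading, and 5 of them rose in that comparison. No marker of these lists was at 0 in all libraries. Transcripts of the mitochondrial genome took 9.96% ± 0.592 of the read pairs in Control, 9.87% ± 0.363 in Unloading and 6.58% ± 0.149 in Reloading. The 10 skin markers summed to 314 CPM in Control 2 and 146 CPM in Reloading 1, which stand apart from the other libraries in this respect. The part of these other cells in the results that follow was not tested, and in whole muscle fewer cells of a type and less RNA per cell cannot be told apart.

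In Reloading against Unloading, 9 of the 10 genes changed, 2 upwards and 7 downwards. Gabarapl1 and Sqstm1 rose. Ulk1, Bnip3, Pink1, Map1lc3b, Becn1, Map1lc3a and Tfeb fell, and Atg12 did not pass the test. Of all genes tested 37.5% were called in this comparison, 18.5% higher and 19% lower, and the count of 9 in 10 is to be read against that. The libraries of the 2 groups did not overlap for 9 of the 10 genes and for 60% of all genes. The median log2 fold change was -0.40 over the 10 genes and 0.03 over all genes tested. In Unloading against Control only Map1lc3a passed the test, upwards, where 9.9% of all genes were called, 4.4% higher and 5.5% lower. The groups did not overlap for 5 of the 10 genes and for 33% of all genes, and the median was 0.15 over the 10 genes and near 0 over all genes. Without Unloading 2 none of the 10 passed this comparison, while 2 had an unadjusted p under 0.05, against 5 with all libraries. In Reloading against Control 8 of the 10 changed, 2 upwards and 6 downwards, against 43.5% of all genes, 22.1% higher and 21.3% lower. There 9 of the 10 genes did not overlap, against 46.9% of all genes, and the medians were -0.25 and 0.01. With library totals in place of TMM factors the median of the 10 genes was -0.15 in Reloading against Unloading and -0.01 in Reloading against Control, and that of all genes was 0.27 and 0.25. Under that scaling Map1lc3b, Pink1 and Bnip3 still passed against Control, at -0.21, -0.23 and -0.26. Map1lc3b and Pink1 passed against Unloading, at -0.38 and -0.41. The falls of Ulk1 in both comparisons and of Bnip3 against Unloading also passed under it. The same 3 Reloading libraries enter both comparisons with Reloading, which are therefore not independent of each other.

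**Figure D1:**
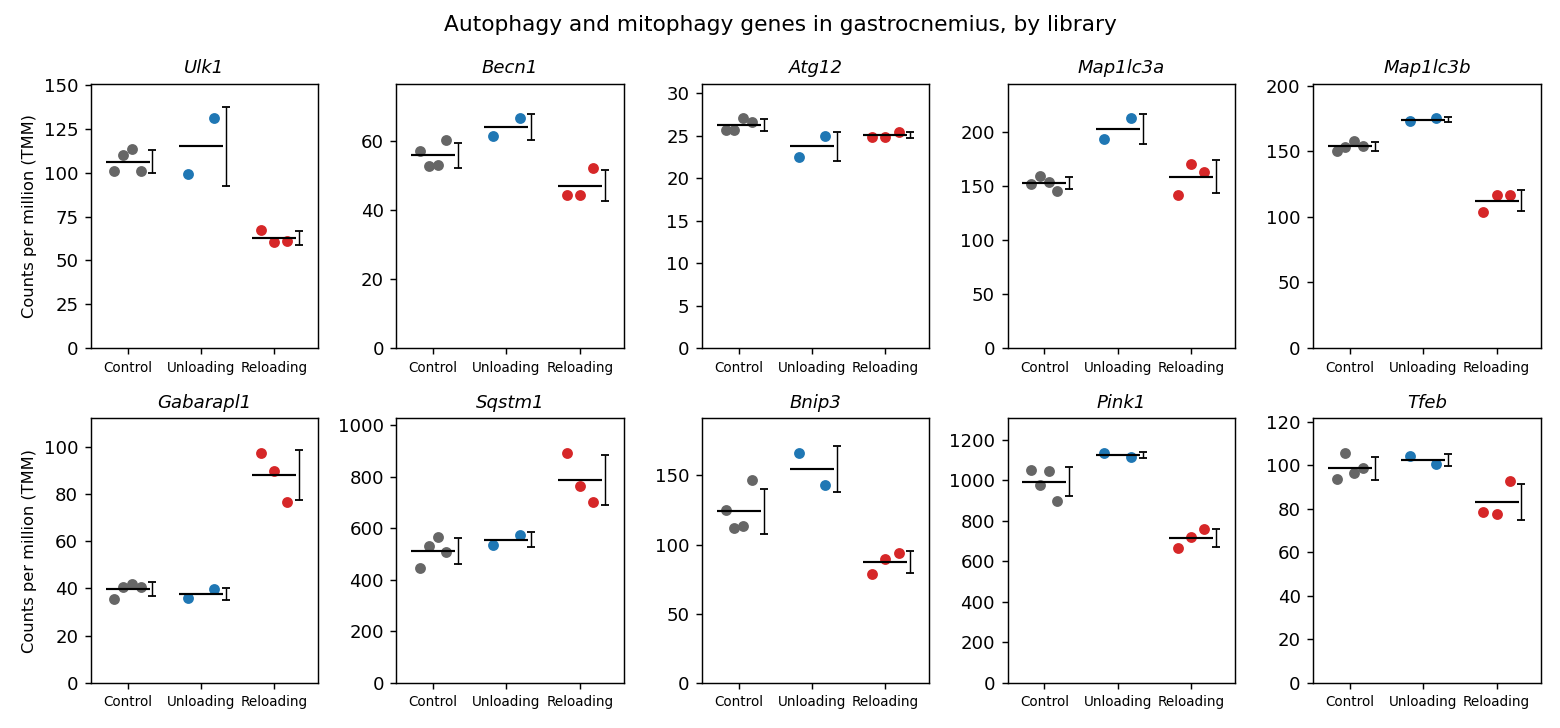
CPM (TMM, y axis from 0) of the 10 genes, 1 panel a gene, for each Control (n = 4), Unloading (n = 2) and Reloading (n = 3) library as a point, with the group mean as a line and the SD as a bar. Gabarapl1 and Sqstm1 have their highest points in Reloading, Ulk1, Bnip3, Pink1, Map1lc3b, Becn1 and Tfeb their lowest, and the points of Atg12 lie close together.

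The stretches of DNA just before the start of 4 of the genes are shown because these genes moved furthest in either direction after reloading, Gabarapl1 and Sqstm1 upwards and Ulk1 and Bnip3 downwards. Each runs 5′ to 3′ on the gene's own strand, from 250 to 41 bases before the RefSeq start of the gene in the mouse build GRCm38.p6. They lie at chr6:129532942-129533151 on the plus strand for Gabarapl1, and on the minus strand at chr11:50210861-50211070 for Sqstm1, chr5:110810122-110810331 for Ulk1 and chr7:138909547-138909756 for Bnip3. Capitals mark the E-box CACGTG, the GC box GGGCGG and the CCAAT box, each searched on both strands.
Gabarapl1: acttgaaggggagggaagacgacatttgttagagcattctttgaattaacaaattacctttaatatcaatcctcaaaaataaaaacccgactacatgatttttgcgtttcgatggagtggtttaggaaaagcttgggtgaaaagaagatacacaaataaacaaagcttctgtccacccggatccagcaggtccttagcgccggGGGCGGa
Sqstm1: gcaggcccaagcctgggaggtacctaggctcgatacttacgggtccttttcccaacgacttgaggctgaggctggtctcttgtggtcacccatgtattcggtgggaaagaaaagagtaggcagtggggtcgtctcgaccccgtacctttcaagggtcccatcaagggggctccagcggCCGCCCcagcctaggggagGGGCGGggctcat
Ulk1: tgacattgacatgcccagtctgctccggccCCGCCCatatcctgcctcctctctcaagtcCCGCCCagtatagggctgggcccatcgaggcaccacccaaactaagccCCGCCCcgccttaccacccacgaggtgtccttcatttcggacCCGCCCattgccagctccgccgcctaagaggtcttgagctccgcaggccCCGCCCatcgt
Bnip3: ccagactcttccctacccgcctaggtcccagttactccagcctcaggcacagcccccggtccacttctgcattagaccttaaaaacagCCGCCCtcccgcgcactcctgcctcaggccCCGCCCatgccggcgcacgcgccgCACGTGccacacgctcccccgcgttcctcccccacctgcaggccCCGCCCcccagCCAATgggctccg
Gabarapl1, the gene that rose most, has the lowest GC content of the 4, at 41.9%, against 61.4% in Sqstm1, 64.8% in Ulk1 and 70.0% in Bnip3. The median was 51.9% over 32851 RefSeq promoters of the same length. The other genes of the 10 with an entry all fell in Reloading against Unloading. Their GC content was 45.7% in the first entry of Tfeb, 52.9% in Pink1 and 67.1% in Map1lc3b. The GC box occurs once in Gabarapl1, at 2 places in Sqstm1, at 5 in Ulk1 and at 3 in Bnip3, and in 26.7% of all promoters. An E-box, the kind of site TFEB and related factors are known to bind, was found among the 4 only in Bnip3, 108 bases before its start, and in 4.65% of all promoters. The same bases hold ACGTG, the core of the sites that hypoxia-inducible factors bind, so these matches overlap. A CCAAT box was found in Bnip3 and in 29.9% of all promoters. RefSeq promoters were at hand for 7 of the 10 genes, all but Map1lc3a, Becn1 and Atg12. Over the whole 300 bases of their entries, the FoxO motif TGTTTAC was found in 0 of the 7 genes. It was found in 4.05% of all 27025 genes with an entry, a share too small to judge from 7 genes. A match of letters is a description and no proof of a bound site.

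Ulk1 encodes the kinase that starts autophagy. The gene (ENSMUSG00000029512) lies on chromosome 5 from 110784488 to 110810097, minus strand. Its CPM were 101, 110, 113 and 101 in Control, 99.2 and 131 in Unloading, and 67.1, 60.3 and 60.8 in Reloading. Every Reloading library was below every library of the other groups, and the Unloading libraries lay on either side of the Control range. Ulk1 fell in Reloading against Unloading by 0.88 ± 0.105 on the log2 scale, that is 1.84-fold, with an adjusted p of 1.69e-05, and against Control by 0.76 ± 0.091, with an adjusted p of 9.89e-06. Between Unloading and Control the difference of 0.12 did not pass the test (adjusted p 0.496), and its 95% interval ran from -0.09 to 0.33.

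Becn1 encodes Beclin 1, a subunit of the lipid kinase complex that marks the forming membrane. It (ENSMUSG00000035086) lies on chromosome 11 from 101285952 to 101302286, minus strand. Control libraries held 57.2, 52.9, 53.1 and 60.4 CPM, Unloading 61.4 and 66.7, and Reloading 44.3, 44.5 and 52.2. The order of the groups was Unloading, Control, Reloading without overlap, but the gaps between neighbouring groups were each under 1 CPM. Becn1 fell in Reloading against Unloading by 0.45 ± 0.092 (adjusted p 0.00158) and against Control by 0.25 ± 0.080 (adjusted p 0.0205). Without Control 2 and Reloading 1, the libraries with skin transcripts, the difference from Control was -0.23 and no longer passed (adjusted p 0.0735), nor did it when Control 4, Reloading 1 or Reloading 2 was left out, with adjusted p of 0.0633 to 0.0934. With library totals neither fall passed, at -0.20 and -0.01. Unloading against Control gave 0.20 ± 0.088 (adjusted p 0.167). Exons of Cntd1 on the other strand cover 43.9% of the exon bases of Becn1, and since the authors counted without strand, read pairs in that stretch may not have been assigned to either gene.

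Atg12 encodes a ubiquitin-like protein that is joined to ATG5 and helps to attach the ATG8 proteins to lipid. The gene (ENSMUSG00000032905) lies on chromosome 18 from 46730144 to 46741580, minus strand. It stood at 25.7, 25.7, 27.1 and 26.6 CPM in Control, 22.5 and 24.97 in Unloading and 24.9, 24.8 and 25.5 in Reloading. Of the 10 genes it had the smallest spread of group means, 0.15 on the log2 scale, against 1.21 for Gabarapl1. None of its comparisons passed the test. The 95% interval of Reloading against Unloading was -0.11 to 0.26, that of Unloading against Control -0.33 to 0.04 and that of Reloading against Control -0.23 to 0.09. With library totals in place of TMM factors, which moves the median of all genes in Reloading against Unloading to 0.27, Atg12 was 0.32 higher with an adjusted p of 0.0086.

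Map1lc3a and Map1lc3b encode LC3A and LC3B, ATG8 proteins of the LC3 branch that coat the autophagosome and bind cargo receptors. Map1lc3a (ENSMUSG00000027602, chromosome 2, 155276297 to 155278073, plus strand) had 152, 159, 154 and 146 CPM in Control, 193 and 213 in Unloading, and 141, 171 and 163 in Reloading. Both Unloading libraries were above all others, and the Reloading libraries spread over the Control range and to either side of it. Map1lc3a rose in Unloading against Control by 0.41 ± 0.081 (1.33-fold, adjusted p 0.00634) and fell in Reloading against Unloading by 0.36 ± 0.086 (1.28-fold, adjusted p 0.00448). Without Unloading 2 neither call held, with adjusted p of 0.0587 and 0.0576 in edgeR. The difference of Reloading from Control was 0.05, with a 95% interval from -0.10 to 0.21 (adjusted p 0.590). With library totals the difference of Reloading from Unloading was -0.11 and no longer passed, while that from Control was 0.29 and did (adjusted p 0.00401).

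Map1lc3b (ENSMUSG00000031812, chromosome 8, 121590361 to 121598760, plus strand) had 150, 153, 158 and 154 CPM in Control, 173 and 175 in Unloading, and 103, 117 and 117 in Reloading. The 3 groups did not overlap, with Unloading highest and Reloading lowest. Map1lc3b fell in Reloading by 0.63 ± 0.075 against Unloading (1.55-fold, adjusted p 1.59e-05) and by 0.45 ± 0.064 against Control (adjusted p 4.82e-05). The value for Unloading against Control was 0.18 ± 0.071 (adjusted p 0.125). Both Unloading libraries were above all 4 Control libraries, in a comparison where 33% of all genes did not overlap.

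Gabarapl1 encodes an ATG8 protein of the GABARAP branch. It (ENSMUSG00000030161) lies on chromosome 6 from 129533160 to 129542346, plus strand. Its CPM were 35.5, 40.7, 42.0 and 40.8 in Control, 35.9 and 39.6 in Unloading, and 97.4, 89.8 and 76.6 in Reloading. The lowest Reloading library stood far above the highest of the others, while Control and Unloading overlapped. Gabarapl1 rose 2.32-fold in Reloading against Unloading (1.22 ± 0.107, adjusted p 1.05e-06) and 2.20-fold against Control (1.14 ± 0.087, adjusted p 1.30e-07), and Unloading against Control gave -0.08 (adjusted p 0.689, 95% interval -0.29 to 0.14). Exons of the antisense gene 1700101I11Rik cover 28.3% of its exon bases, and that gene had 114 read pairs over all 9 libraries.

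Per unit of exon length the ATG8 family was led by Map1lc3a. Its RPKM (CPM divided by the exon length in kilobases) averaged 129 ± 4.87 among Control, 172 ± 11.8 among Unloading and 134 ± 12.8 among Reloading libraries (SD, n = 4, n = 2 and n = 3), and it made up 52.2%, 58.6% and 51.4% of the family's summed RPKM. Gabarapl1 took 7.98% ± 0.666 of that sum in Control, 6.39% ± 0.133 in Unloading and 16.8% ± 2.67 in Reloading. The share of Map1lc3b went from 8.26% in Control and 7.91% in Unloading to 5.74% in Reloading. Of the family's other genes, Gabarap fell in Reloading against Unloading by 0.27 on the log2 scale (adjusted p 0.0173) and Gabarapl2 did not pass (-0.11, adjusted p 0.353). The summed RPKM of the 5 genes were 248 ± 5.65 in Control, 293 ± 13.8 in Unloading and 261 ± 15.1 in Reloading. These shares rest on the exon lengths of the count table, 1181 bases for Map1lc3a and 7517 for Map1lc3b. Read pairs in the 28.3% of Gabarapl1 exon bases shared with 1700101I11Rik may not have been assigned. Such overlaps were not examined for Gabarap and Gabarapl2. In CPM, without that division, Map1lc3a and Map1lc3b were alike in Control, at means of 153 and 154.

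**Figure D2:**
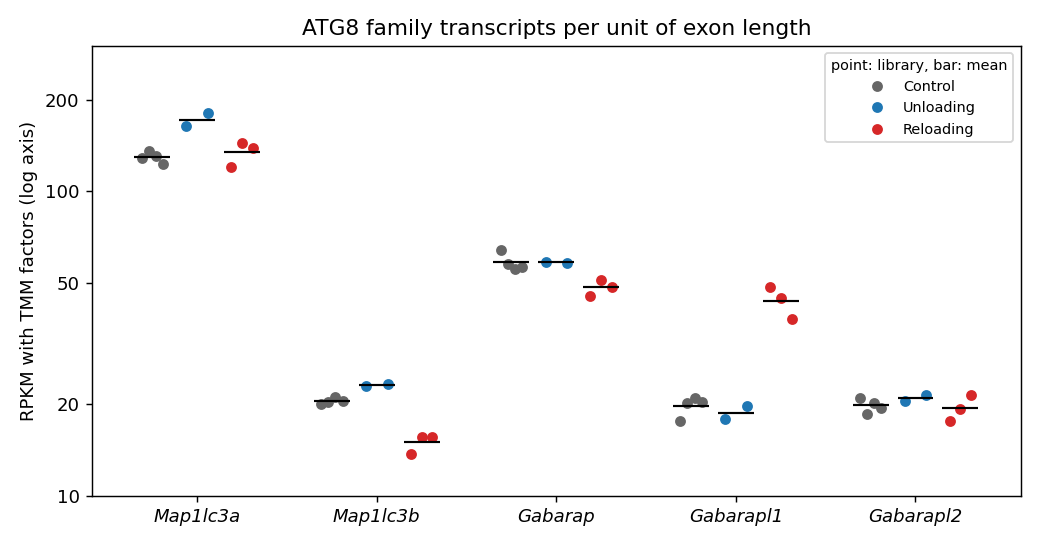
RPKM with TMM factors (log axis) of the 5 ATG8 family genes, with a point for each of the 4 Control, 2 Unloading and 3 Reloading libraries and a bar for the group mean. Map1lc3a is highest in every group, at means of 129 to 172 RPKM, and Gabarapl1 moves from 18.8 RPKM in Unloading to 43.7 RPKM in Reloading while Map1lc3b moves from 23.2 to 14.95.

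Sqstm1 encodes p62, a receptor that binds ubiquitin-tagged cargo and LC3 and is itself broken down by autophagy. It (ENSMUSG00000015837) lies on chromosome 11 from 50199366 to 50210827, minus strand. The libraries held 447, 531, 567 and 509 CPM in Control, 536 and 576 in Unloading, and 894, 765 and 703 in Reloading. All Reloading libraries were above the rest, and Unloading lay at the upper end of Control. Sqstm1 rose 1.42-fold against Unloading (0.50 ± 0.108, adjusted p 0.00215) and 1.53-fold against Control (0.62 ± 0.089, adjusted p 5.78e-05). Unloading against Control gave 0.11 (adjusted p 0.516). Reloading 1, a library with skin transcripts, was the highest of the 3 for both Sqstm1 and Gabarapl1, and without it and Control 2 both genes still passed in both comparisons with Reloading. Exons of Mrnip on the other strand cover 17.3% of the exon bases of Sqstm1, and that gene had 241 read pairs over all libraries.

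Bnip3 encodes a receptor in the outer mitochondrial membrane that binds LC3. The gene (ENSMUSG00000078566) lies on chromosome 7 from 138890836 to 138909519, minus strand. It had 125, 112, 113 and 147 CPM in Control, 166 and 143 in Unloading, and 78.6, 89.9 and 93.6 in Reloading. Reloading was below all other libraries, and Control 4 reached into the Unloading range. Bnip3 fell in Reloading by 0.82 ± 0.114 against Unloading (1.77-fold, adjusted p 6.47e-05) and by 0.51 ± 0.099 against Control (adjusted p 0.000728). For Unloading against Control the value was 0.32 ± 0.108, just short of the threshold (adjusted p 0.0770), and it ran from 0.21 without Unloading 1 (adjusted p 0.534) to 0.41 without Control 4, where it passed (adjusted p 0.0178), and 0.42 without Unloading 2, where it did not.

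Pink1 encodes the kinase that marks damaged mitochondria for the ubiquitin ligase Parkin. It (ENSMUSG00000028756, chromosome 4, 138313409 to 138326307, minus strand) was the most abundant of the 10 genes per unit of exon length, at a mean of 348 RPKM. Its CPM were 1049, 976, 1044 and 899 in Control, 1135 and 1115 in Unloading, and 667, 721 and 757 in Reloading, so that the 3 groups did not overlap. Pink1 fell in Reloading by 0.65 ± 0.083 against Unloading (1.57-fold, adjusted p 2.89e-05) and by 0.47 ± 0.071 against Control (adjusted p 7.70e-05). The value for Unloading against Control was 0.18 ± 0.079 (adjusted p 0.162). Both mitophagy genes had their lowest levels in the libraries in which the mitochondrial genome also took its lowest share of read pairs and fast-fibre markers were lowest, whose part in these values was not tested.

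Tfeb encodes a transcription factor that drives genes of autophagy and the lysosome. The gene (ENSMUSG00000023990) lies on chromosome 17 from 47737030 to 47792419, plus strand. Its CPM were 93.5, 106, 96.5 and 98.6 in Control, 104 and 101 in Unloading, and 78.7, 77.7 and 92.7 in Reloading. Reloading 3 came within 1 CPM of the lowest Control library, without overlap. Tfeb fell in Reloading by 0.30 ± 0.088 against Unloading (adjusted p 0.0143) and by 0.25 ± 0.075 against Control (adjusted p 0.0148), and Unloading against Control gave 0.05 (adjusted p 0.733). The call against Control was lost without Control 2 and Reloading 1 together (adjusted p 0.133), without Reloading 1 (0.0673) and without Reloading 2 (0.0778), and the call against Unloading was lost without Unloading 1 (0.0798) or Reloading 2 (0.0592). With library totals these differences were -0.01 and -0.05 and neither passed.

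**Figure D3:**
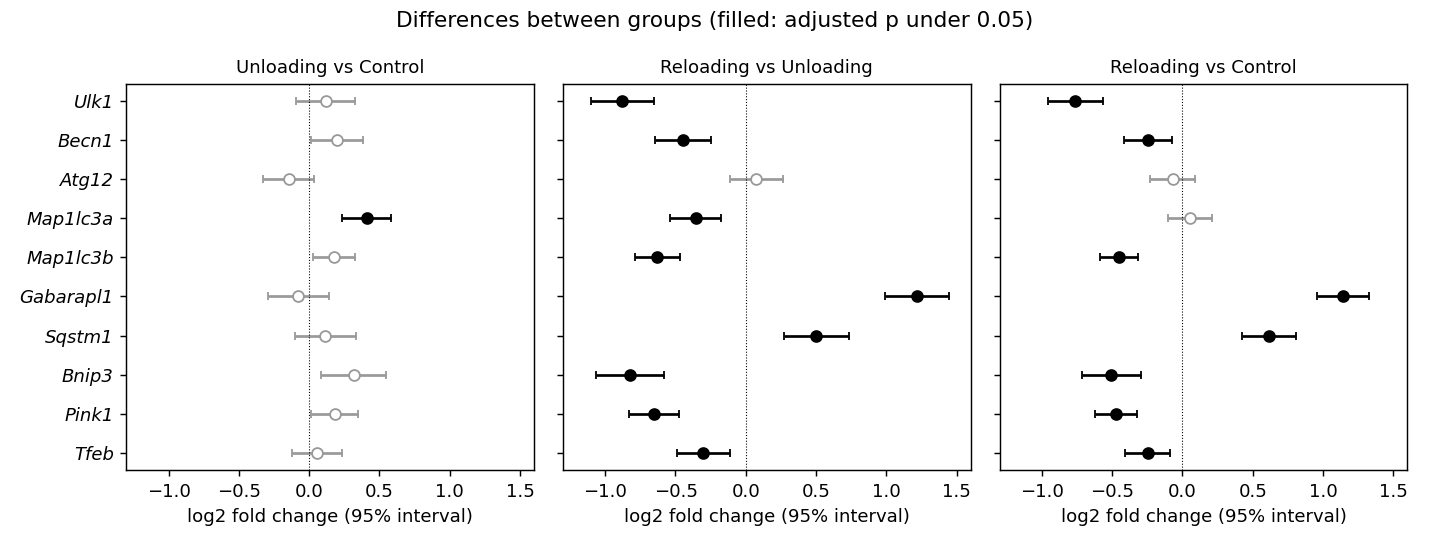
Log2 fold changes (x axis) of the 10 genes in Reloading against Unloading, Unloading against Control and Reloading against Control, with 95% intervals as bars and filled points where the adjusted p is under 0.05. Gabarapl1 stands furthest to the right in both comparisons with Reloading, at 1.22 and 1.14, and in Unloading against Control Map1lc3a alone is filled, at 0.41.

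Per unit of exon length the mean over all 9 libraries fell in the order Pink1, Sqstm1, Map1lc3a, Bnip3, Gabarapl1, Map1lc3b, Tfeb, Ulk1, Becn1 and Atg12, from 348 RPKM through 183 and 140 down to 3.28. The order changed between groups. Gabarapl1 stood above Map1lc3b in Reloading alone, at 43.7 against 14.95 RPKM. The means were 19.7 and 20.5 in Control and 18.8 and 23.2 in Unloading. The order of genes rests on the exon lengths of the count table, 2013 bases for Gabarapl1 and 7517 for Map1lc3b. Exons on the other strand cover 43.9% of the exon bases of Becn1, 28.3% of Gabarapl1, 22.3% of Bnip3 and 17.3% of Sqstm1. Exons of other genes cover smaller parts of Pink1 and Map1lc3b. Read pairs in such stretches may not have been assigned, and how far this lowers the RPKM of each gene was not tested. In CPM Map1lc3b stood above Gabarapl1 in Reloading too, at means of 112 and 87.9. In Reloading Gabarapl1, at 43.7 ± 5.25 RPKM, stood beside Bnip3, at 38.6 ± 3.45, a gap smaller than the SD of Gabarapl1. In Unloading these values were 18.8 ± 1.27 and 68.3 ± 7.32. Map1lc3a and Sqstm1 were within their SDs of each other in Unloading, at 172 ± 11.8 and 166 ± 8.45 RPKM.

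The ratio of 2 genes within a library does not depend on how libraries are scaled. The log2 ratio of Sqstm1 to Map1lc3b was 1.73 ± 0.117 in Control, 1.67 ± 0.060 in Unloading and 2.80 ± 0.273 in Reloading. That of Map1lc3b to Map1lc3a was 0.01 ± 0.060, -0.22 ± 0.085 and -0.49 ± 0.047, without overlap between any of the groups, and that of Bnip3 to Pink1 was -3.00 ± 0.265, -2.87 ± 0.137 and -3.03 ± 0.044. In the exact permutation test, two-sided, the first 2 ratios differed between Reloading and Control with p = 0.0286, the smallest p that 3 libraries against 4 allow, which became 0.129 after adjustment over the 9 tests of ratios. Between Reloading and Unloading the exact permutation p was 0.1 for both, the smallest that 3 against 2 allow. For Bnip3 to Pink1 the exact permutation p was 0.1, 0.533 and 0.971 in Reloading against Unloading, Unloading against Control and Reloading against Control. No ratio could reach an adjusted p of 0.05 with groups of this size.

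The wider pathway was described with a list of 80 autophagy genes in 11 steps, of which the 10 genes are a part, and all 80 were tested. In Reloading against Unloading 7 of the 80 rose and 31 fell, where 18.5% of all genes tested rose and 19% fell. Of the 70 genes that are not among the 10, 5 rose and 24 fell. The median log2 fold change of the list was -0.16, against 0.03 over all genes tested. In Unloading against Control 10 rose and 2 fell, where 4.4% of all genes rose and 5.5% fell, with a list median of 0.09. This count rested on Unloading 1, without which 2 of the 80 rose and 0 fell, and 121 of all genes were called in place of 1470. In Reloading against Control 17 rose and 28 fell, where 22.1% of all genes rose and 21.3% fell, with a list median of -0.06. With library totals in place of TMM factors the split turned to 20 higher and 14 lower in Reloading against Unloading and to 35 higher and 13 lower in Reloading against Control, so the direction of the list as a whole depends on the scaling. Under that scaling 82.8% and 80.2% of all called genes were higher in these comparisons, against 49.3% and 50.9% with TMM factors.

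Among the initiation genes, 3 of 5 fell in Reloading against Unloading and 0 rose, with either scaling. The counts of these steps are small, and are to be read against the 18.5% of all genes that rose and the 19% that fell in this comparison. Beside Ulk1 these were Ulk2, its close relative, by 0.68 ± 0.089 (adjusted p 3.93e-05) and Rb1cc1, which encodes the scaffold FIP200, by 0.74 ± 0.099 (adjusted p 4.32e-05). Against Control all 5 initiation genes changed, 4 of them downwards, with Ulk2 at -0.78 and Rb1cc1 at -0.72. In that comparison 22.1% of all genes rose and 21.3% fell, and with library totals 1 of the 5 rose and 3 fell. Of the 8 nucleation genes 2 fell in Reloading against Unloading, Becn1 and Ambra1, a Beclin 1 partner that had risen by 0.40 ± 0.073 in Unloading against Control (adjusted p 0.00438). Of the 7 genes of membrane supply, which includes lipid transfer and phosphoinositide binding, 1 rose and 3 fell. Wipi1 rose by 0.56 ± 0.088 (adjusted p 0.000169) while its relative Wdr45 fell by 0.69 ± 0.133 (adjusted p 0.000909). With library totals 1 nucleation gene rose and 0 fell, and membrane supply had 1 in each direction.

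Of the 10 conjugation genes 2 were lower and 0 higher, with a median of 0.01 in Reloading against Unloading, but 4 higher and 1 lower with library totals. The share lower is close to the 19% of all genes. Of them Atg10, an E2-like enzyme that acts on ATG12, was 0.71 lower than in Control (adjusted p 0.000618). Among the 6 genes of fusion with the lysosome 5 fell against Unloading and 0 rose, and with library totals 1 fell and 0 rose. Against Control 3 of these 6 fell, with Vamp8, a SNARE protein of that step, lower by 0.73 ± 0.098 (adjusted p 2.93e-05). In that comparison 21.3% of all genes fell, and with library totals 1 of these 6 rose and 2 fell.

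Of the 11 mitophagy genes 6 fell in Reloading against Unloading and 0 rose, where 19% of all genes fell and 18.5% rose, while with library totals 3 fell and 2 rose. With Bnip3 and Pink1 went Bnip3l, which encodes the related receptor NIX, by 0.74 ± 0.079 (82.6 to 49.3 CPM, adjusted p 6.35e-06). In Unloading against Control 1 of the 11 rose and 1 fell, where 4.4% of all genes rose and 5.5% fell. The gene that fell was Tomm7, a subunit of the import pore that helps to hold PINK1 at the outer membrane, by 0.33 ± 0.084 (adjusted p 0.0224). Receptors of other cargo moved both ways, with 1 higher, Sqstm1, and 1 lower of 6 in Reloading against Unloading, and 4 higher and 1 lower with library totals. Calcoco1 had risen by 0.36 ± 0.076 in Unloading against Control (adjusted p 0.00908). Of the 5 genes of endoplasmic reticulum turnover 2 rose in Reloading, Tex264 by 0.63 ± 0.143 (adjusted p 0.00286) and Rtn3 by 0.44 ± 0.089 (adjusted p 0.0014), and 2 fell (3 and 1 with library totals). Both also rose against Control, by 0.62 and 0.52, and Sec62, another receptor of that organelle, had risen in Unloading against Control by 0.42 ± 0.086 (adjusted p 0.00754).

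Of the 4 transcription genes Tfeb alone was called in Reloading against Unloading, while against Control 1 rose and Tfeb fell. Against Control 22.1% of all genes rose and 21.3% fell, and with library totals 2 of the 4 rose there and 0 fell. With library totals 1 of the 4 rose and 0 fell against Unloading. Of the 13 upstream regulators 2 rose and 3 fell in Reloading against Unloading (3 and 2 with library totals), where 18.5% of all genes rose and 19% fell. Trp53inp1, which encodes a p53-induced protein that binds LC3, had 13.2, 12.1, 13.5 and 15.9 CPM in Control, 43.0 and 29.6 in Unloading, and 10.96, 12.4 and 12.6 in Reloading. It rose in Unloading by 1.40 ± 0.138 (2.64-fold, adjusted p 7.51e-05) and fell in Reloading by 1.59 ± 0.148 (adjusted p 1.94e-06), the widest moves of the whole list in these comparisons. Its relative Trp53inp2 fell in Unloading against Control by 0.50 ± 0.083 (adjusted p 0.00292) and was 0.73 lower in Reloading than in Control. The catalytic subunits of AMP-activated kinase went opposite ways in Reloading against Unloading. Prkaa1 rose by 0.84 ± 0.113 (14.5 to 26.0 CPM, adjusted p 5.05e-05), while Prkaa2 fell by 0.54 ± 0.112 (449.7 to 309.0 CPM, adjusted p 0.00159). Mtor, the kinase that holds autophagy back when nutrients are plentiful, rose by 0.60 ± 0.082 (adjusted p 5.67e-05). Sesn1, a stress-induced protein that restrains mTORC1, rose in Unloading by 0.55 ± 0.135 (adjusted p 0.0195) and was 0.67 higher in Reloading than in Control (adjusted p 0.000377). Of the 7 genes of the list named for Unloading against Control, only Trp53inp1 still passed without Unloading 1, and adjusted p of the others then ran from 0.0881 for Ambra1 to 0.397 for Sesn1, whose difference was then 0.28. Calcoco1 and Tomm7 also lost their call without Unloading 2 (0.0529 and 0.0686), Tomm7 without Control 3 (0.0615), and Tex264 its call in Reloading against Unloading without Unloading 1 (0.0518).

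**Figure D4:**
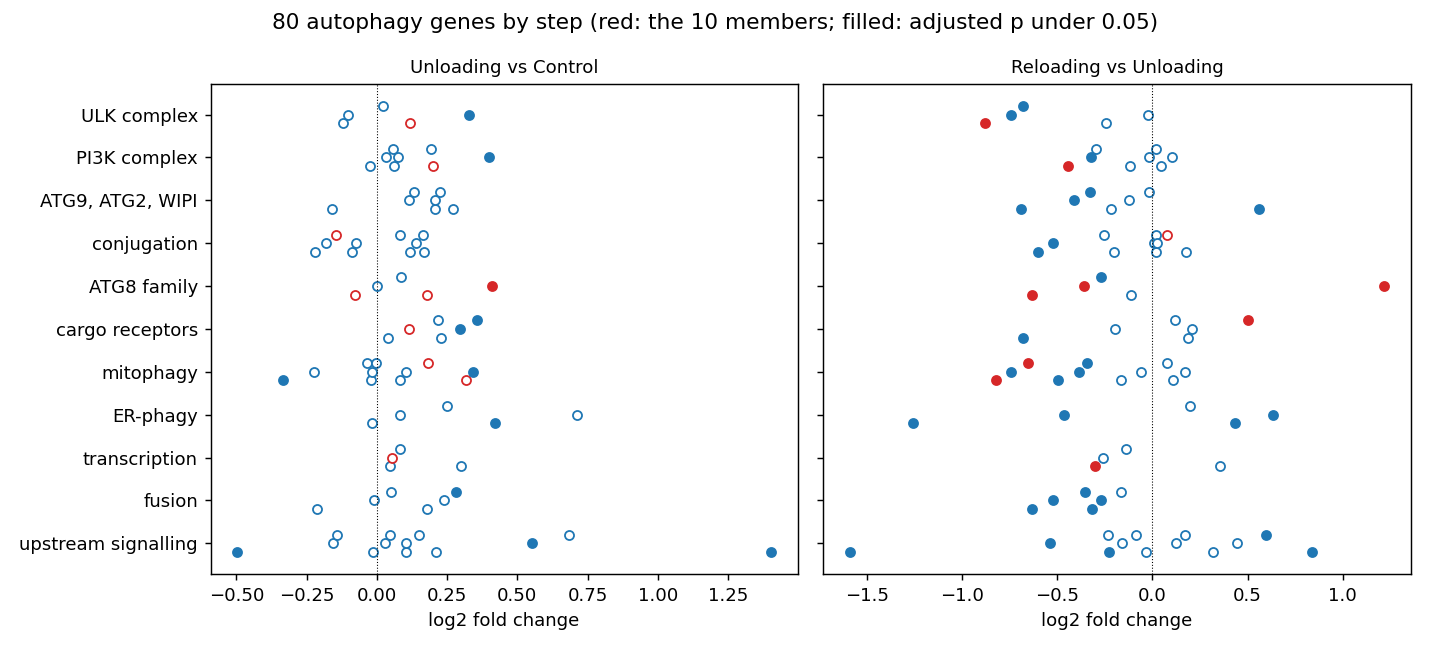
Log2 fold changes (x axis) of the 80 autophagy genes by step (y axis) in Unloading against Control and in Reloading against Unloading, with the 10 genes in red and filled points where the adjusted p is under 0.05. Filled points of initiation, fusion and mitophagy lie left of 0 in Reloading against Unloading with TMM factors (with library totals 2 mitophagy genes rose), and Trp53inp1 is the farthest point of each panel, at 1.40 and -1.59.

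The genes most like the 3 members with the widest span of group means were found by the root mean square difference of log2 CPM, centred per gene over the 9 libraries, among 5839 genes of sufficient level. Gabarapl1 was nearest to Vcl, which encodes vinculin, at 0.0866, then Lmna at 0.0874 and Rrp12 at 0.0882. Ulk1 was nearest to Tmem223 at 0.103, Cacng7 at 0.109 and Tmem233 at 0.114. Bnip3 was nearest to Phf20l1 at 0.0465, then to Mstn, which encodes myostatin, at 0.0595 and to Ppp1cb at 0.0692. These are descriptions over 9 libraries that share their groups and their depth.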

How the data were processed

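RNA of 9 gastrocnemius muscles was analysed. Per the labels the authors enriched polyadenylated RNA with an Illumina TruSeq kit, and per the submitters' processing notes and file headers aligned reads with STAR 2.7.3a to GRCm38.p6 and counted them with featureCounts 2.0.3, unstranded, on Ensembl release 102. The deposited table holds raw counts of read pairs per gene, with no filter or normalization. Symbols came from the authors' DESeq2 tables, whose signal, log2 fold changes and p-values were deposited but not used.

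Genes were kept by filterByExpr (minimum count 10, minimum total 15), which left 14851 of 34376 with a total above 0. All 9 libraries entered 1 quasi-likelihood fit in edgeR 4.0.16 (R 4.3.3) with TMM scaling and group as the only term, so that Unloading, with 2 libraries, shared the estimate of the spread. P-values were two-sided and Benjamini-Hochberg adjusted within each comparison. The common biological coefficient of variation was 0.0927. Log2 CPM used a prior count of 2, and RPKM used the exon length of the count table. Ratios were tested by exact permutation over libraries. P-values weigh the differences between groups against the spread between these libraries. Nothing in the labels says more than that they are separate samples, each taken here as 1 mouse. Replicates differed by more than sampling noise. The main fit and the tests of ratios used no pairing. By the numbers in the sample descriptions, the deviations of all 3 same-numbered pairs of Control with Reloading correlated (r = 0.427, 0.185 and 0.170). The first of them was between Control 2 and Reloading 1, the libraries with skin transcripts. Differently numbered pairs reached r = 0.129. A pairing by these numbers entered only as an alternative, the replicate block by description. The pairing comes from the numbers in the sample descriptions, not from a stated batch.

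The 10 genes, the list of 80 and the marker lists were chosen with earlier results of these data known. Beside the 10 genes, the text names for each comparison up to 5 higher and up to 5 lower genes of the list with the largest log2 fold change, a log2 CPM averaging 2 or more and a passed test, and, for the 3 genes whose group means span the widest range, the 3 genes nearest in pattern among those whose log2 CPM averaged 4 or more. Gabarap, Gabarapl2 and Prkaa2 were named outside this rule, to complete the ATG8 family and the pair of kinase subunits, after their values were seen. In all, 19 alternatives were run, DESeq2 1.42.0 among them. The fit was tested on simulated data with known changes in few genes, in equal numbers up and down. That setting does not test the choice between TMM factors and library totals. Protein sequences were not used here.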

Additional observations from a re-analysis of the deposited data

Results flagged for a closer look

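Atg10 was picked out in Control because Control 2, at 10.2 CPM, lay far from the other 3 libraries, which stood between 9.07 and 9.27 CPM. The gap divided by the range of the group was 0.8292, barely past Dixon's critical value for 4 libraries. Control 2 is also the library with the most skin transcripts, whose part in this value was not tested. The 28 genes named were examined in the Control group, the only group with 4 libraries, and chance alone picks out about 1 in 20 such groups.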

How the results depend on the processing

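Gabarapl1, Sqstm1, Map1lc3b, Bnip3, Ulk1 and Pink1 kept direction and call in both comparisons with Reloading under all 19 alternatives, with Gabarapl1 between 1.14 and 1.47 against Unloading. Of the 10 genes, 2 passed in Unloading against Control, Map1lc3a and Bnip3, with the DESeq2 Wald test, with no filter on low counts and with either replicate block. Leaving out 1 library at a time, that count ran from 0 to 2, the count of the list of 80 from 2 to 13, and that of all genes from 121 without Unloading 1 (949 without Control 3) to 1518, against 1470 with all libraries. The differences that turned did not pass the adjusted test before or after: in Reloading against Control, Map1lc3a ran from -0.0074 without Reloading 2 to 0.13 without Reloading 1, Atg12 was 0.17 with library totals (p 0.0366 before and 0.0682 after adjustment), and the ratio of Bnip3 to Pink1 ran from -0.10 without Control 3 to 0.10 without Control 4, while Ulk1 in Unloading against Control ran from -0.10 without Unloading 2 to 0.30 without Unloading 1. The cause was not tested. Leaving out a library of Unloading leaves 1, which is then assumed to vary like the other groups. With library totals 7 of the 10 genes passed in each comparison with Reloading, 3 higher and 4 lower. Titles and descriptions number the libraries differently. Same-numbered libraries deviated together (r over 0.1) in 0 of 7 pairs by title. By description they did so in all 3 pairs of Control with Reloading and in 0 of the 3 pairs with an Unloading library. Differently numbered libraries also passed that mark by description, Control 1 with Reloading 2 (r = 0.121) and with Reloading 3 (r = 0.129). An r over 0.1 thus does not set same-numbered pairs apart. The replicate block by description left 8 of the 10 genes and 43 of the 80 called in Reloading against Control, and changed no call of a named gene there. With the replicate block by title, Bnip3 in Unloading against Control was 0.42 (adjusted p 0.0354) and Becn1 in Reloading against Control lost its call (0.0753). By description Bnip3 was 0.38 (0.00868). Tomm7 in Unloading against Control lost its call under both blocks (0.0545 and 0.0547) and with no filter (0.0521). How far lower depth would change these calls was not tested.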
